A study of Rattus norvegicus with 6 samples.

Results

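The immediate early genes described here are Egr1, Jun, Junb, Fos, Dusp1, Atf3, Btg2 and Myc, in livers of rats fed a low-fat or a high-fat liquid diet. They were found by name: a probe set belonged to a gene when the annotation of the Affymetrix Rat Genome U34A array gave that gene as its single symbol. This gave 19 probe sets for 7 of the 8 genes, out of 8740 probe sets on the array (array controls left out), of which 7006 carry 1 of 4736 distinct symbols. Btg2, an antiproliferative gene, had no such probe set and was not analysed here. Egr1 and Jun had 4 probe sets each, Fos and Dusp1 3 each, Junb and Myc 2 each and Atf3 1. Male Sprague Dawley rats in both groups received their diet by total enteral nutrition, that is by tube, for 3 weeks. The Control diet had 5% corn oil and supplied 187 kcal per kg of metabolic body mass (body weight to the power 3/4) per day. The NASH diet, named for nonalcoholic steatohepatitis, had 70% corn oil and supplied 220 kcal on the same basis, so that fat content and energy differ together. Each group had 3 arrays, called Control 1 to 3 and NASH 1 to 3. No source used here says that the 3 came from separate animals, and the p-values measure the spread between arrays, which may be technical.

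Immediate early genes are switched on within minutes of a stimulus, without need of new protein synthesis, by transcription factors that are already present in the cell. Growth factors, cytokines and stress reach them mainly through the mitogen-activated protein (MAP) kinases, which act on serum response factor and its partners at CArG boxes and on CREB-type factors at cAMP response elements. Fos, Jun and Junb encode subunits of the dimeric factor AP-1, Egr1 a zinc finger factor, Atf3 a stress-induced member of the ATF/CREB family and Myc a growth-promoting factor. Dusp1 encodes a phosphatase that removes phosphate from MAP kinases and so acts as feedback on the pathway. In liver the group is known for its surge after partial removal of the organ, and for its response to fasting hormones, cytokines and handling of the tissue.

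The samples were liver per the instrument records, and 11 of 12 hepatocyte markers listed were on the array, all 11 above the intensity filter, with summed normalized signals of 32800 to 35900 in Control and 32700 to 34800 in NASH. Deposited trimmed mean signals lay between 73.6 and 117 over the 6 arrays, and no common scale was present, so signals were quantile normalized. Control 3 stood out with the highest ratio of 3' to 5' signal for actin, 5.07 against 2.15 to 2.93 elsewhere, a measure that rises when RNA is degraded. NASH 2 carried transcripts of other tissues: summed signals of fat markers were 3590 there against 443 to 561 in the other arrays, and those of skeletal muscle markers 2660 against 158 to 257. The wash records of Control 2 and NASH 3 were blank and those of the other 4 arrays filled. In whole tissue, fewer cells of a type and less RNA per cell cannot be told apart.

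Dusp1 was the immediate early gene with the clearest difference between the diets. All 3 of its probe sets had lower signals in every NASH array than in any Control array. Their differences ran from −1.32 to −1.93 on the log2 scale, 2.49-fold to 3.82-fold lower, but none passed the test over the whole array. The largest of these came from a probe set whose NASH values all lay below the level of the intensity filter. Egr1 was also lower on its brightest probe set, mostly through 1 Control array, while Jun, Junb, Fos, Atf3 and Myc showed no difference that went clearly beyond the spread of the arrays. Of the 19 probe sets, 16 passed the filter on low signals (mean log2 signal above the 40th percentile of the array, 3.95) and were tested. NASH was compared with Control by limma on log2(signal + 2.29) over 5244 probe sets, with Benjamini-Hochberg adjustment over all of them, and 0 of the 16 were called at an adjusted p under 0.05. Over the whole array 7 were called, 0.133%. At an adjusted p under 0.10, 1 of the 16 was lower in NASH, Dusp1 S81478_s_at, against 0.0953% of all. At an unadjusted p under 0.05, limma placed 3 of the 16 lower in NASH, all Dusp1, and 0 higher, where 4.02% and 3.87% of all probe sets tested were lower and higher. For 4 of the 16 the NASH arrays lay wholly below the Control arrays (7.72% of all tested), the 3 of Dusp1 and 1 of Egr1, and for 0 they lay wholly above (6.54%). In NASH, 11 of the 16 were lower and 5 higher, with a median difference of −0.29 against −0.02 for all probe sets tested. Without Dusp1 the median of the remaining 13 was −0.15.

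**Figure D1:**
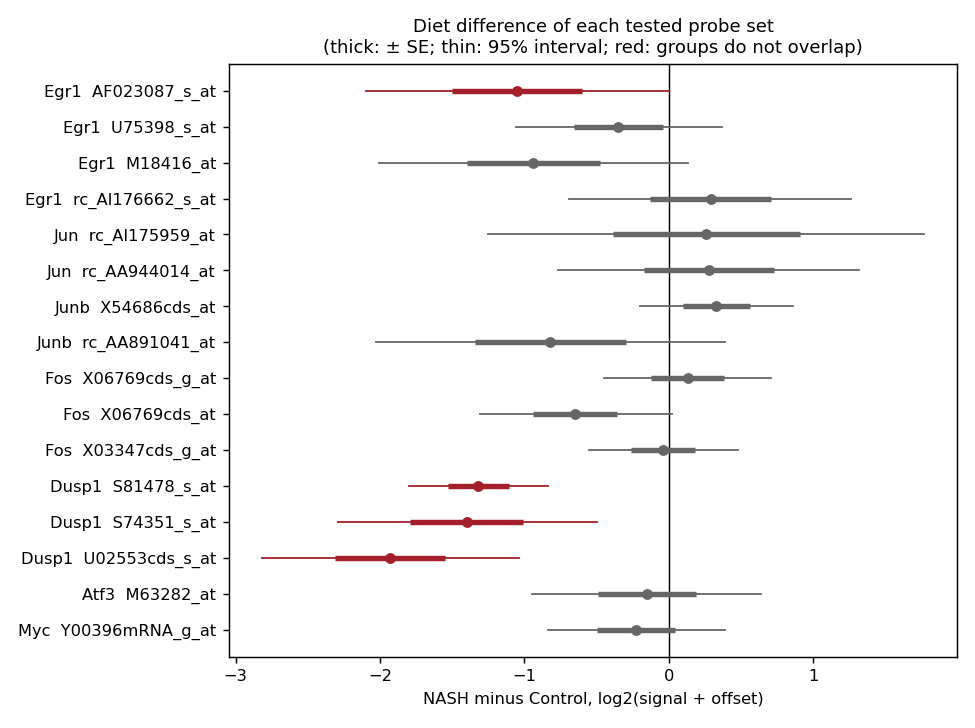
NASH minus Control difference on the log2(signal + offset) scale for each of the 16 tested probe sets, as a point with its standard error (thick bar) and 95% interval (thin bar), n = 3 arrays per group. Red marks the 4 probe sets whose groups do not overlap; the intervals of the 3 Dusp1 probe sets lie wholly below 0.

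Dusp1 lies on rat chromosome 10 at chr10:17184853-17187646 in the GRCr8 assembly, on the plus strand. Its promoter is shown because it is the member with the largest diet difference, and that of Junb, whose intervals included 0, is set beside it. Both are the 250 bases before the RefSeq transcription start (GRCr8, plus strand, 5′ to 3′), chr10:17184603-17184852 for Dusp1 and chr19:40080876-40081125 for Junb, and capitals mark matches to TGACG, the core of the cAMP response element, or to the full element TGACGTCA.
Dusp1: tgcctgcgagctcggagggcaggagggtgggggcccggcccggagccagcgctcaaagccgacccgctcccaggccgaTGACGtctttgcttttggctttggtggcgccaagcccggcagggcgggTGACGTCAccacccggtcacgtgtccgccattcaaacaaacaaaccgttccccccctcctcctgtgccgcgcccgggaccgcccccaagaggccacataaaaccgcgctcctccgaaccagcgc
Junb: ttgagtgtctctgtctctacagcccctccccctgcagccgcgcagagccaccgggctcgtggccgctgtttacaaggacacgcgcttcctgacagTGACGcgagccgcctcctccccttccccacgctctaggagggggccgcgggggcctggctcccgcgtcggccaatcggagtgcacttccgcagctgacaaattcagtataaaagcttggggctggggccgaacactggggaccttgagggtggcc
The Dusp1 window held 1 full TGACGTCA, a palindrome that starts 124 bases before the transcription start and holds the core on both strands, and a further TGACG at 172 bases. The full element occurred in 1.59% and the core in 18.2% of 33469 rat promoters searched over the same window and on both strands. Junb had 1 core, at 155 bases, and no full element. Dusp1 also had 2 GC boxes, GGGCGG, at 131 and 46 bases (30.5% of promoters hold at least 1), and Junb had a TATAAA at 49 bases (12.9%). Neither window held a CArG box (1.5% of promoters) or the AP-1 site TGANTCA (6.34%), and neither held the EGR site GCGNGGGCG (4.29%). Among the members the promoter table also holds Egr1, with 2 CArG boxes at 105 and 83 bases and a TGACG on the minus strand at 135 and at 66 bases. It holds Btg2 too, which like Dusp1 had 1 full TGACGTCA, at 201 bases, with 3 GC boxes and 1 EGR site and no CArG box. These matches describe the letters in the window and are not measured binding sites.

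The brightest Dusp1 probe set, S81478_s_at, had deposited signals of 142, 135 and 102 in Control 1, 2 and 3, and of 51.8, 44.9 and 37.0 in NASH 1, 2 and 3. The lowest Control array was thus well above the highest NASH array, before and after normalization. On the normalized log2 scale the Control mean was 6.95 ± 0.25 (SD, n = 3) and the NASH mean 5.63 ± 0.12 (SD, n = 3). The difference was −1.32 ± 0.21 (SE; 95% interval −1.80 to −0.84), 2.49-fold lower in NASH, with a limma adjusted p = 0.0878, and it was the 14th smallest p of the 5244.

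The other Dusp1 probe sets agreed in direction and were more variable among the Control arrays. U02553cds_s_at had deposited signals of 68.4, 82.7 and 25.7 in Control 1, 2 and 3 against 13.1, 11.6 and 9.52 in NASH 1, 2 and 3. Its difference was −1.93 ± 0.38 (SE; 95% interval −2.82 to −1.04; limma adjusted p = 0.197), or 3.82-fold lower. Its NASH values on the log2 scale, 3.88, 3.68 and 3.93, all lay below the filter level of 3.95. The probe set passed the filter through its Control values, so the size of its fold depends on the offset. S74351_s_at had 69.1, 71.9 and 23.8 in Control and 23.2, 13.5 and 12.8 in NASH in the same order of arrays. Here Control 3 and NASH 1 almost met in deposited signal, and after normalization they stood at 4.81 and 4.59 on the log2 scale. The difference was −1.40 ± 0.39 (SE; 95% interval −2.29 to −0.50; limma adjusted p = 0.447). In all 3 Dusp1 probe sets Control 3, the array with the highest 3' to 5' ratio, was the lowest Control array. The part of RNA quality in this was not tested. Without Control 3 the differences were larger, −2.36 for U02553cds_s_at, −1.82 for S74351_s_at and −1.44 for S81478_s_at. All 3 names end in _s_at, which marks probe sets that can match more than 1 transcript sequence, and the 3 measure 1 gene in the same RNA, so they are not 3 independent findings. Averaged over its 3 probe sets, Dusp1 stood at 6.27, 6.62 and 5.48 in the Control arrays and at 4.71, 4.35 and 4.65 in the NASH arrays. An exact permutation test of that mean gave p = 0.1 (two-sided), the smallest that 3 against 3 arrays allow. This outcome was fixed in advance, because none of the 3 probe sets overlapped between groups, and it adds nothing to that separation. The mean also takes in U02553cds_s_at, with its NASH values below the filter level.

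**Figure D2:**
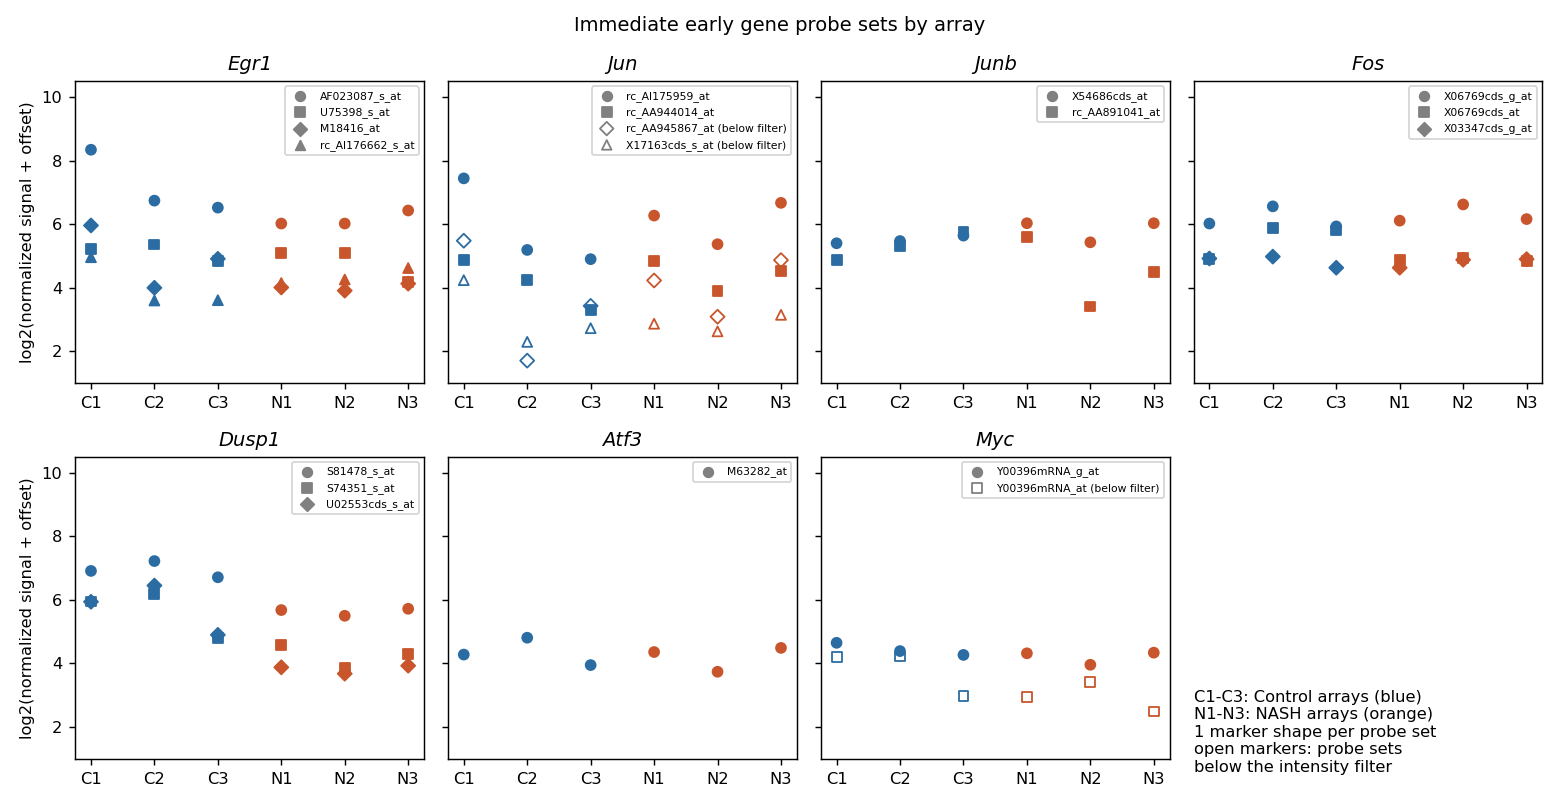
Quantile-normalized log2(signal + offset) of the 19 probe sets in each array, 1 panel per gene, with Control arrays in blue, NASH arrays in orange and open markers for the 3 probe sets below the intensity filter. Dusp1 separates the groups on all 3 probe sets, and Control 1 stands highest for Egr1 AF023087_s_at (8.34) and Jun rc_AI175959_at (7.44).

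The size of the Dusp1 difference was also read within each set of wash records. Its sign could not change there, or with arrays left out, because on all 3 probe sets every NASH array lay below every Control array. Among the 4 arrays with a filled record the difference was −1.23 for S81478_s_at, −1.15 for S74351_s_at and −1.64 for U02553cds_s_at. Control 2 and NASH 3, with blank records, differed by −1.50, −1.89 and −2.52. Among the filled records, the times logged for hybridization were earlier for both Control arrays than for both NASH arrays, so that run and diet cannot be told apart within them. Leaving out NASH 2, which held the signals of fat and muscle, gave differences of −1.25, −1.21 and −1.86. In the fit with array weights, which gave Control 2 and Control 3 the lowest weights (0.455 and 0.489), S81478_s_at and U02553cds_s_at passed with limma adjusted p-values of 0.0298 and 0.0342. That fit called 20 probe sets over the array, 0.381%. With an offset of 16 in place of 2.29 the difference of U02553cds_s_at was −1.31.

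**Figure D3:**
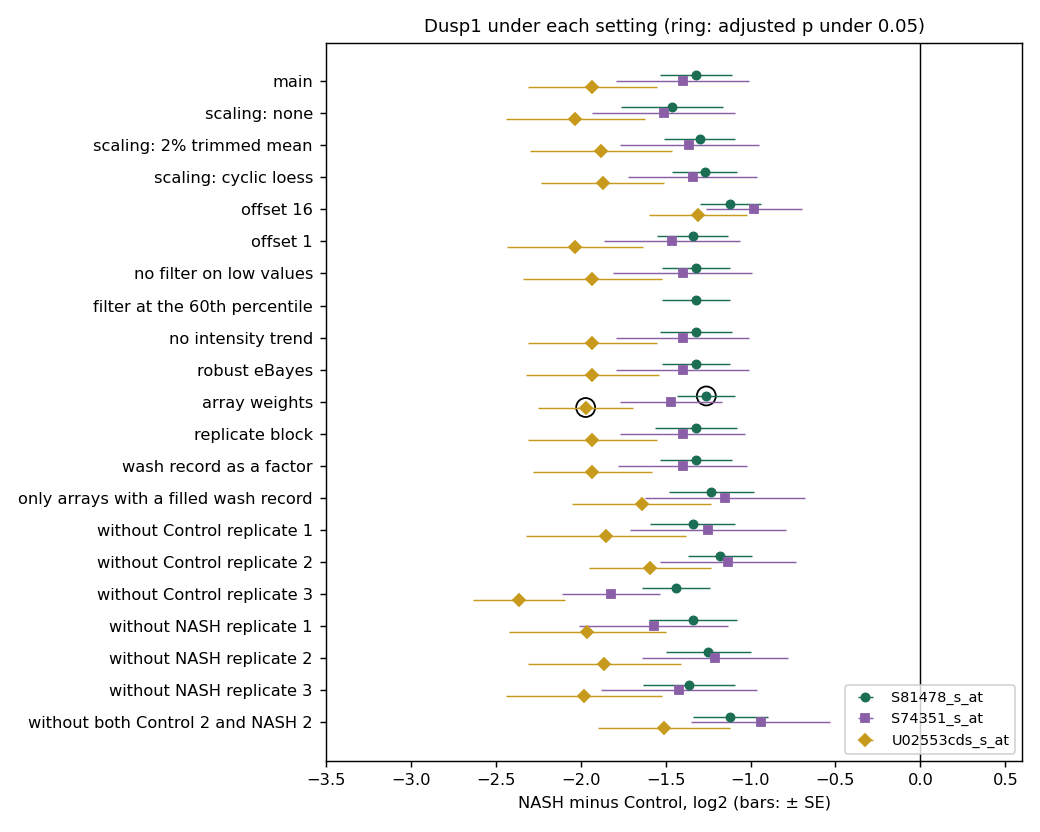
NASH minus Control difference (log2, with SE bars) of the 3 Dusp1 probe sets under the setting used throughout and each alternative, including each array left out in turn. The points lie between −2.36 and −0.94. Their sign is fixed for subsets of the arrays, because the groups do not overlap. Rings mark the 2 values with an adjusted p under 0.05, both with array weights.

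Egr1, a zinc finger factor induced by growth factors and stress, lies on chromosome 18. Its brightest probe set, AF023087_s_at, had deposited signals of 395, 100 and 88.9 in Control 1, 2 and 3, and of 65.5, 64.6 and 63.2 in NASH 1, 2 and 3. The groups did not overlap, but Control 1 stood far above the other arrays and Control 2 and 3 only a little above NASH. The difference was −1.05 ± 0.45 on the log2 scale (SE; 95% interval −2.10 to 0.00; limma adjusted p = 0.619), and −0.48 without Control 1. A second probe set, M18416_at, showed the same array on top, with deposited signals of 70.0 in Control 1 against 15.5 and 25.9 in Control 2 and 3 and 14.8, 14.0 and 11.2 in NASH. Its difference of −0.94 ± 0.46 (SE; limma adjusted p = 0.621) was −0.44 without Control 1. In deposited signal Control 2 lay just above the NASH arrays, and after normalization it lay among them, at 4.00 on the log2 scale against 4.01, 3.91 and 4.13 in NASH 1, 2 and 3.

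The other 2 Egr1 probe sets did not repeat the group difference. U75398_s_at ranged from 24.4 to 41.2 in Control and from 11.7 to 33.9 in NASH (deposited signal), and NASH 3 alone was low. Its difference was −0.35 (95% interval −1.06 to 0.37), and −0.04 without NASH 3. On rc_AI176662_s_at Control 1 was highest at 32.7, yet Control 2 and 3, at 11.4 and 8.59, were below NASH 1, 2 and 3 at 16.5, 18.5 and 16.3. The difference there was 0.29 (95% interval −0.69 to 1.26), and was 0.73 without Control 1, 0.06 without Control 2 or Control 3 and 0.14 without NASH 3, so that the sign of the Egr1 difference depends on the probe set.

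The AP-1 subunits were next. Jun, on chromosome 5, encodes the subunit that can pair with itself or with Fos. Its brightest probe set, rc_AI175959_at, had deposited signals of 207, 36.8 and 25.7 in Control 1, 2 and 3 and of 81.2, 41.2 and 75.6 in NASH 1, 2 and 3. Control 1 was the highest array and the other Control arrays were the lowest, so the groups overlapped fully. The difference was 0.26 ± 0.65 (SE; 95% interval −1.25 to 1.77; limma adjusted p = 0.932), and it was 1.06 without Control 1 and −0.21 without Control 3. rc_AA944014_at gave 0.28 (95% interval −0.77 to 1.32), with 30.6, 18.3 and 6.42 in Control and 28, 13.7 and 15.3 in NASH. Both remaining Jun probe sets lay below the filter and were not tested. On rc_AA945867_at the highest signal was 49.1 in Control 1 and the lowest 1.73 in Control 2, and on X17163cds_s_at Control 1 had 18.7 against 3.57 to 5.28 elsewhere. Control 1 was thus the highest array for all 4 Jun probe sets.

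Junb, on chromosome 19, encodes an AP-1 subunit that often acts against Jun. Its probe set X54686cds_at had deposited signals of 46.0, 44.2 and 46.3 in Control and 66.1, 43.1 and 46.4 in NASH, where NASH 1 was the highest array and the other 5 were close together. After normalization NASH 1 and NASH 3 both stood at 6.03 on the log2 scale, against 5.40 to 5.64 in the other arrays. The difference was 0.33 ± 0.23 (SE; 95% interval −0.20 to 0.86; limma adjusted p = 0.726), and 0.53 without NASH 2. The other, rc_AA891041_at, pointed the opposite way at −0.82 (95% interval −2.03 to 0.39). It had 30.5, 39.8 and 50.9 in Control 1, 2 and 3, and 48.1, 9.40 and 14.8 in NASH 1, 2 and 3. NASH 2 was the lowest array there and NASH 1 the highest of its group; omitting NASH 2 gave −0.28 and omitting NASH 1 gave −1.37.

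Fos, on chromosome 6, encodes the AP-1 subunit that needs a partner to bind DNA. Its brightest probe set, X06769cds_g_at, had 72.0, 89.1 and 58.3 in Control and 70.4, 97.1 and 51.3 in NASH, with full overlap. The difference was 0.13 ± 0.25 (SE; 95% interval −0.45 to 0.71; limma adjusted p = 0.914). X03347cds_g_at gave −0.04 (95% interval −0.55 to 0.48). X06769cds_at, drawn from the same source sequence as the first, gave −0.65 ± 0.29 (SE; 95% interval −1.31 to 0.02; limma adjusted p = 0.619). Its signals were 59.4 and 52.5 in Control 2 and 3 and 31.3 in Control 1, beside 29.0, 30.1 and 19.4 in NASH, so that Control 1 stood with the NASH arrays.

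Atf3, on chromosome 13, had 1 probe set, M63282_at, with 19.3, 27.6 and 11.4 in Control and 19.5, 12.1 and 14.8 in NASH. The groups overlapped and the difference was −0.15 ± 0.34 (SE; 95% interval −0.95 to 0.64; limma adjusted p = 0.928). Myc, on chromosome 7, had a difference of −0.23 ± 0.27 on Y00396mRNA_g_at (SE; 95% interval −0.84 to 0.39; limma adjusted p = 0.845), with 25.9, 20.5 and 14.9 in Control and 18.9, 14.6 and 13.3 in NASH. Leaving out NASH 2 gave −0.10. The second Myc probe set, Y00396mRNA_at, lay below the filter, with 17.8, 18 and 4.56 in Control and 5.64, 9.44 and 2.40 in NASH. For Atf3, Junb, Fos and Myc, the brightest probe sets have intervals within 1 log2 unit of 0. A 2-fold difference on the log2(signal + offset) scale thus lay outside the interval on that probe set only. The intervals of Junb rc_AA891041_at (−2.03 to 0.39) and Fos X06769cds_at (−1.31 to 0.02) included a 2-fold lower signal in NASH. For Jun the interval of the brightest probe set included a 2-fold difference in both directions.

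The members did not share 1 pattern over the arrays. Of the 19 probe sets, 8 were highest in Control 1 (3 of 4 for Egr1, 4 of 4 for Jun and 1 for Myc) and 8 in Control 2, among them all 3 of Dusp1. Of all probe sets tested, 12.3% were highest in Control 1 and 23.8% in Control 2. These shares leave out probe sets below the filter. The 19 include such probe sets, Jun rc_AA945867_at and X17163cds_s_at (highest in Control 1) and Myc Y00396mRNA_at (highest in Control 2). Some leads were small, with 0.04 log2 units for Jun rc_AA944014_at and for Myc Y00396mRNA_at. NASH 2 was the lowest array for 7 of the 19 and for 20.3% of all tested. With the brightest probe set of each of the 7 genes centred on its mean, the median was 0.32 in Control 1, 0.07 in Control 2, −0.16 in Control 3, 0 in NASH 1, −0.53 in NASH 2 and 0.02 in NASH 3. Fat and muscle markers were highest in the array with the lowest median, and their part in it was not tested.

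The genes around the pathway were read from lists, 1 probe set per gene. None of the genes on these 6 lists was called, against 0.0955% of the 3140 genes so tested, and 55.6% of those 3140 were lower in NASH, with a median of −0.04. Of 20 other early response transcription factors tested (32 listed), 12 were lower and 8 higher, with a median of −0.10. At an unadjusted p under 0.05, limma placed 1 lower and 1 higher (4.84% and 3.34% of all genes). Klf9, a glucocorticoid-responsive factor, differed by −0.96 (limma adjusted p = 0.581; −0.57 without Control 2), Klf10, induced by TGF-beta, by 0.63 (0.581) and Ier5 by −0.56 (0.619).

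Of 19 further early response genes that are not transcription factors (47 symbols listed, older names included), 13 were lower and 6 higher, with a median of −0.21, and 3 lower and 2 higher at an unadjusted p under 0.05. Cish, an inhibitor of cytokine receptor signalling, differed by −0.92 (limma adjusted p = 0.448). Zfp36, which binds and destabilizes early response mRNAs, differed by −0.72 (0.569; −0.47 without Control 2), and its second probe set by −0.27. Pdk4, a kinase that restrains glucose oxidation, had a difference of 1.96 in the opposite direction (0.456; 1.35 without Control 2). Its Control values were 4.82, 2.42 and 3.7 on the log2 scale. Their mean of 3.65 lay below the filter level of 3.95, and the NASH mean was 5.61. Pdk4 thus passed the filter through its NASH values, so the size of its difference depends on the offset.

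Upstream of the immediate early genes, 29 kinases, receptors and transcription factors were tested, 19 lower and 10 higher, with a median of −0.11. The interleukin-6 receptor Il6r differed by −0.70 (limma adjusted p = 0.581), the kinase Araf by −0.44 (0.619) and the MAP kinase kinase Map2k1 by 0.40 (0.665; 0.24 without NASH 2). Among 5 other phosphatases tested, 3 were higher and 2 lower, with a median of 0.03. Dusp6, which acts on the ERK class of MAP kinases, had the largest difference of the 5, −1.44 ± 0.56 (SE; limma adjusted p = 0.581). Its log2 signals were 7.52, 6.58 and 8.23 in Control and 7.02, 5.05 and 5.95 in NASH, where NASH 1 lay above Control 2. Without NASH 2 it differed by −0.96, and its second probe set gave −0.81. Ptpn1, a phosphatase of the insulin receptor, differed by 0.55 (0.507), but its 3 other tested probe sets gave 0.23, 0.12 and −0.34. The phosphatase subunit Ppp2r1a differed by 0.27 (0.15 without NASH 2), and by −0.23 on a second probe set.

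Of 13 partners and targets of MYC tested, 10 were higher and 3 lower, with a median of 0.16. Without scaling between arrays that median was −0.01, while the median of all probe sets tested went from −0.02 to −0.17, so that the list lay above it by a like amount in both settings. Max, the partner of MYC, differed by 0.70 (limma adjusted p = 0.581), the mitochondrial chaperone Hspd1 by 0.44 (0.569) and Mxi1, an antagonist of MYC, by −0.73 (0.549). Among 6 tested genes of the ATF/CREB stress response, 4 were lower and 2 higher, with a median of −0.26. Nupr1, a stress-induced chromatin protein, differed by −1.76 ± 0.38 (SE; limma adjusted p = 0.228). On this list 2 genes, Nupr1 and Trib3, had NASH arrays wholly below the Control arrays and 0 wholly above, against 277 and 186 of all 3140 genes. For Trib3 the nearest arrays were Control 1 at 4.38 and NASH 1 at 4.32 on the log2 scale. The counts below and above were 1 and 1 of the 20 early response transcription factors, and 3 and 2 of the 19 further early response genes. They were 3 and 0 of the 29 upstream genes, 0 and 1 of the 5 phosphatases and 1 and 2 of the 13 MYC genes. Trib3 differed by −0.50 (0.651; −0.30 without Control 2) and Asns, asparagine synthetase, by −0.32 (0.802; −0.11 without NASH 1).

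**Figure D4:**
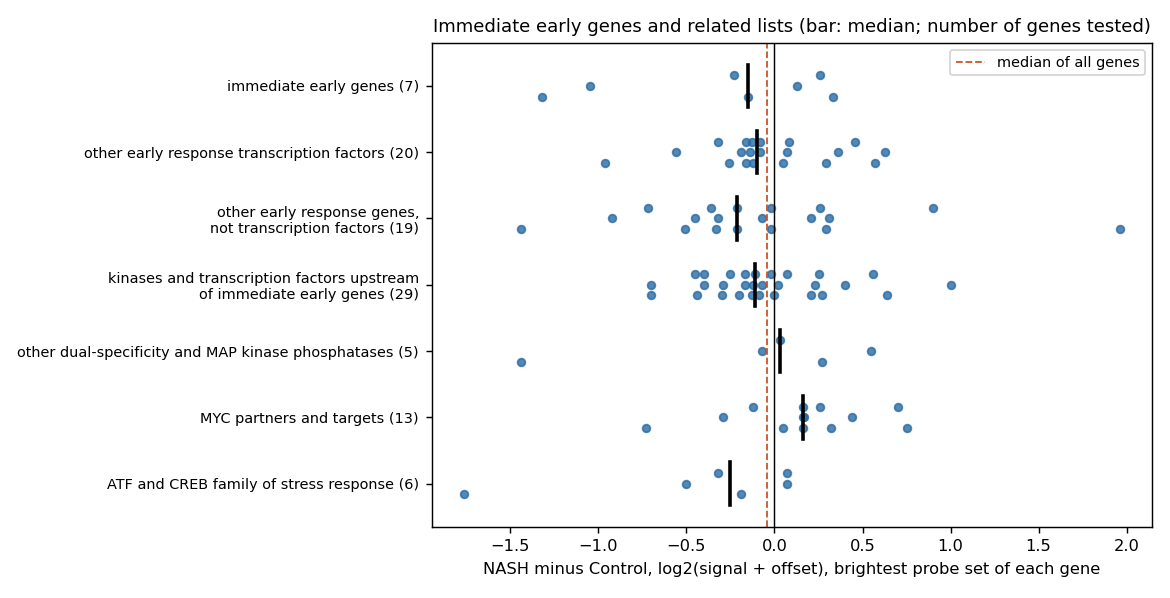
NASH minus Control difference (log2) of the brightest tested probe set of each gene, in the immediate early genes and 6 related lists, with 1 point per gene, a black bar at each list's median and a dashed line at the median of all genes (−0.04). The median of the 7 immediate early genes is −0.15, and those of the 6 lists lie between −0.26 and 0.16.

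Over the 6 arrays, the genes whose log2 values ran most like Dusp1 S81478_s_at, of 3133 other genes, were Reln (Pearson r = 0.980), Adgrl2 (0.976), Igfbp1 (0.973), Rpl39 (0.964) and RT1-S3 (0.960). These were picked as the highest of all candidates and share the arrays and the diet contrast with Dusp1, so the values are a description with no test. Igfbp1, the insulin-like growth factor binding protein repressed by insulin, was 1 of the 7 probe sets called over the array (−1.75; limma adjusted p = 0.0341), and Reln and Adgrl2 differed by −0.32 and −0.30 only. The genes most like the mean of the 7 members were B4galt1 (r = 0.944), Gstm1 (0.932), Myh4 (0.917), Kcnn1 (0.915) and Cpq (0.909). Myh4 is 1 of the skeletal muscle markers listed, yet was lowest in NASH 2, at 3.31 on the log2 scale against 3.82 to 4.73 elsewhere. Of the 11 muscle markers on the array, 10 had a higher mean in NASH.

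Markers of other cell types were summed over the genes on the array. For macrophages, with 6 of 12 markers on the array, the sums were 852 to 1270 in Control and 822 to 1230 in NASH. For neutrophils only 3 of 9 were on the array, none above the filter, with sums of 16.2 to 31.7 and 27.6 to 37.4. For lymphocytes (9 of 12) the sums were 126 to 157 and 173 to 270, for endothelial cells (5 of 9) 121 to 149 and 131 to 161, for stellate cells and fibroblasts (9 of 11) 494 to 714 and 400 to 1100, for cholangiocytes (7 of 9) 761 to 1040 and 896 to 1030, and for red cells (4 of 8) 2970 to 3760 and 2940 to 5280. No marker was listed at 0, because the deposited signals are all above 0. Lymphocyte sums were higher in every NASH array than in any Control array, as were those of fat (443 to 453 against 466 to 3590). Only 4 of the 9 lymphocyte markers were above the filter, and the sums were 173, 270 and 184 in NASH 1, 2 and 3. The part of lymphocytes and fat in the Dusp1 difference was not tested.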

How the data were processed

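Liver RNA of 3 Control and 3 NASH samples was hybridized to Affymetrix U34A rat arrays. The authors deposited MAS5 intensities on a linear scale, with 1 value for each probe set, per the submitters' processing notes, and the scaling target is not given in the sources used here. The deposited instrument records hold other information only. The 59 array controls were left out. Signals were quantile normalized, an offset of 2.29 (the 10th percentile) was added, log2 was taken, and probe sets above the 40th percentile of mean log2 were tested. NASH was compared with Control with limma 3.58.1 in R 4.3.3 (lmFit and eBayes with trend; residual degrees of freedom 4, prior 3.91). No covariate was used, and the test was checked on simulated data. The shifts planted there were larger than any member difference reported here, so the check does not cover differences of that size. The number of arrays limits the precision. Probe sets are named by the platform annotation, and promoters and coordinates are RefSeq's GRCr8. Every member is named, with 3 genes of smallest p per list and the 5 genes most like the members and Dusp1. The members and lists were chosen with earlier results of these data known. Replicate numbers are shared between groups but were not found to pair the arrays (correlation of deviations 0.0484, −0.0212 and 0.0730). Other settings tried were the scaling, the offset, the filter, the prior, weights per array, blocks, thresholds and the omission of arrays.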

Additional observations from a re-analysis of the deposited data

How the results depend on the processing

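The count of 0 called immediate early gene probe sets was the same under 19 of the 22 alternatives. It was 2 with array weights, 1 at an adjusted p under 0.10 and 3 at an unadjusted p under 0.05, all Dusp1, and it was 0 whichever single array was left out. The median difference of −0.29 lay between −0.42 and −0.19 when single arrays were left out and was −0.40 without scaling between arrays, a setting that moved the median of all probe sets from −0.02 to −0.17. No Dusp1 probe set turned sign, which with arrays left out could not happen, because its groups do not overlap. With the replicate number as a block, limma called 0 members and 1 probe set over the array in place of 7, and only 2 of 3 Control arrays correlated best with their own number, so the numbers are not taken as pairs. The array-wide count was 0 with no filter, 3 with no intensity trend or with the wash record as a factor, 2 with filled wash records only, 14 with no scaling, 20 with array weights, 15 without Control 2 and NASH 2, and 0 to 17 with 1 array left out (17 without NASH 2; 0 without Control 1, Control 3 or NASH 3; 1 without Control 2 or NASH 1). Of 214 single probe set values, 8 turned sign. These were Fos X06769cds_g_at with no scaling (−0.03), Egr1 rc_AI176662_s_at (−0.11), Jun rc_AI175959_at (−0.34) and Atf3 (0) with array weights, Egr1 U75398_s_at (0.07), Egr1 rc_AI176662_s_at (−0.08) and Jun rc_AI175959_at (−0.35) on filled wash records only, and Atf3 without Control 2 and NASH 2 (0.31). With 1 array left out, 10 of 96 values turned sign, in Jun rc_AI175959_at (−0.21 to 1.06), Jun rc_AA944014_at (−0.14 to 0.65), Fos X06769cds_g_at (−0.03 to 0.32), Fos X03347cds_g_at (−0.14 to 0.05) and Atf3 (−0.35 to 0.08). The cause was not tested. The mean signals of Atf3 and Myc lay close to the intensity filter, and those of the dimmer Jun probe sets near or below it. The NASH values of Dusp1 U02553cds_s_at lay below it too. This limits what can be seen there.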

Other observations

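Control 1, the array with the highest Egr1 and Jun signals, had few other transcripts that stood apart, though NASH 1 and NASH 3 had fewer. Of 5244 probe sets tested, 7 (0.133%) were at least 2-fold above all 5 other arrays in it, and 2 of these 7 were Egr1 probe sets. The like count was 34 in Control 2, 18 in Control 3, 2 in NASH 1, 89 in NASH 2 and 2 in NASH 3. In Control 1 the largest gap to the next array, 1.7 log2 units, was that of AF036761_g_at, which has no gene name here. Chosen after their values were seen, the others with a gene name were Slc2a5, a fructose transporter, at 6.60 on the log2 scale against at most 4.91 elsewhere, Pla2g2a, a secreted phospholipase, at 7.07 against at most 5.74, and Slc25a30, a mitochondrial carrier, at 8.71 against at most 7.61. A further 39 early response genes read from the lists were not concentrated in that array: 6 were highest in Control 1 (15.4%, against 11.4% of all genes). In Control 2 there were 15 (38.5% against 24.7%) and in Control 3 there were 7 (17.9% against 27.5%). In NASH 1 there were 7 (17.9% against 8.76%), in NASH 2 there was 1 (2.56% against 14.8%) and in NASH 3 there were 3 (7.69% against 12.9%).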
